A study of Sus scrofa with 6 samples.

Results

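The complement cascade and its lectin pathway were followed in the subcutaneous fat of pigs on a resveratrol diet and on a control diet. A list of 33 complement genes was matched to the deposited gene tables by pig symbol. Of these, 24 had a row among the 22844 rows of each table, and the other 9 (C1R, C1S, CD46, CD55, CD59, C3AR1, C5AR1, CR2 and ITGAX) matched no row and were not analysed here. The list thus has no matched membrane regulator. A further 3 genes, COLEC11, C5 and C6, had a mean under 0.5 TPM and were not tested. TPM, a scaled transcript abundance, corrects reads for transcript length and for the size of the library, so levels can be compared between genes.

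The pigs were a Duroc × Landrace × Yorkshire cross. RNA from 3 libraries of the resveratrol diet, with resveratrol, a plant polyphenol, at 400 mg/kg, was compared with RNA from 3 libraries of the control diet. Sex, age and time on the diet were not given in the sources used here. Nothing in the labels says whether each library is its own animal. The p-values therefore cover the spread among these 6 libraries, and this spread may be technical. Depth was 34436239 to 37943877 reads in resveratrol libraries, and 16251536 (control 2) to 34048559 reads in control libraries. The fat marker ADIPOQ stood at 4437, 4683 and 4575 TPM in resveratrol 1, 2 and 3, and at 3614, 4042 and 3795 TPM in control 1, 2 and 3.

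Complement is a set of plasma and cell surface proteins that tag microbes and dying cells for uptake or lysis. The classical pathway starts when C1q binds antibody or debris, and the lectin pathway when ficolins or collectins bind sugars on a surface. The alternative pathway can feed on C3 that has already been cleaved. All routes meet at C3 and C5, soluble and membrane-bound regulators hold them in check, and receptors on myeloid cells read the products. Fat is a known site of synthesis for factor D, first described in adipocytes as adipsin, and its resident macrophages make C1q.

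The 24 matched complement genes of the list spanned a wide range of levels, and few of them held most of the summed TPM. CFD, which encodes factor D, the protease that starts the alternative pathway, averaged 329 TPM over the 6 libraries and took 29.7% of the summed TPM of the 24 genes. The C1q chains followed, with 174 TPM for C1QC, 135 TPM for C1QA and 128 TPM for C1QB, and then SERPING1 with 116 TPM and FCN2 with 107 TPM. The place of FCN2 differed by diet: its mean was the lowest of these 6 genes in resveratrol (71.6 TPM), while in control (143 TPM) it lay above SERPING1 (131 TPM), C1QA (115 TPM) and C1QB (111 TPM). These 6 genes made up 89.2% of the summed TPM. The ranges of C1QA and C1QB overlapped within each diet, so their order is not set beyond the spread, and SERPING1 overlapped with both in control libraries but lay below both in resveratrol libraries. C3, the protein on which all pathways converge, averaged 4.08 TPM and was number 15 of the 24 genes. The summed level of the 24 genes was 1407, 1080 and 1005 TPM in resveratrol 1, 2 and 3, and 1139, 1040 and 972 TPM in control 1, 2 and 3. The diets overlapped in this sum, and resveratrol 1 had the highest value.

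**Figure D1:**
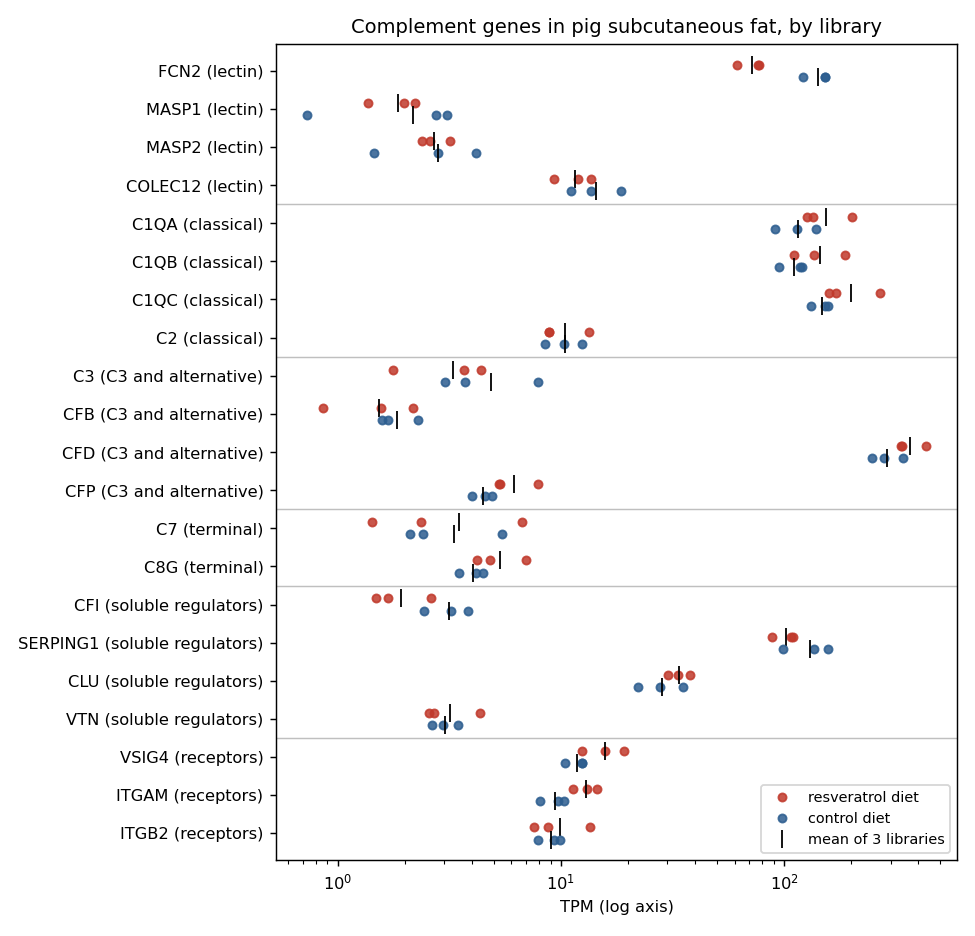
TPM on a log axis for the 21 tested complement genes, grouped by role. Each point is 1 library, red for the resveratrol diet above blue for the control diet, and the black bar is the mean of 3 libraries. FCN2 is the gene whose diets stand farthest apart, at 61.6 to 76.9 TPM in resveratrol and 122 to 153 TPM in control.

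Between diets, no complement gene passed the adjusted threshold in the main test. At an unadjusted p under 0.05, the lectin FCN2 and the regulator CFI were lower in resveratrol, while the C1q chains C1QB and C1QC, the properdin gene CFP and the receptor genes ITGAM and VSIG4 were higher. That test was edgeR's quasi-likelihood test on read counts, with Benjamini-Hochberg adjustment over all 14908 tested genes. It called 0 of the 21 tested complement genes and 0 of all tested genes (0%) at an adjusted p under 0.05. At an unadjusted p under 0.05, 5 of the 21 were higher in resveratrol (23.8%, against 2.21% of all tested genes) and 2 were lower (9.52%, against 4.32%). DESeq2, run on the same counts, called FCN2 among these 21 genes, where it called 0.268% of all tested genes, and limma on log2(TPM + 0.5) called 0. Of the 21 genes, 14 had a positive log2 fold change (66.7%, against 48.8% of all tested genes) and 7 a negative one, with a median of 0.18 against -0.01 over all tested genes. On log2(TPM + 0.5) the same medians were 0.05 and -0.08. The genes had been listed with earlier results of these data known, and several are expressed by the same cells, so these counts are a description.

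FCN2, a ficolin that recognises acetylated sugars on microbial surfaces and starts the lectin pathway, measured 61.6, 76.9 and 76.1 TPM in resveratrol 1, 2 and 3, and 152, 153 and 122 TPM in control 1, 2 and 3. Every resveratrol library lay below every control library, and the nearest values of the diets, 76.9 and 122 TPM, were farther apart than the range within either diet. The means were 71.6 ± 8.63 TPM in resveratrol and 143 ± 17.8 TPM in control (SD, n = 3 each). The log2 fold change of the counts was -0.91 (standard error, SE, 0.18; 95% interval -1.31 to -0.50), a level 0.534 times that of control. FCN2 was number 8 of the 14908 genes by unadjusted p in edgeR (5.14e-04), with an adjusted p of 0.690, and its DESeq2 adjusted p was 0.00307.

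The FCN2 difference did not rest on a single library. With each library left out in turn the log2 fold change stayed between -0.995 (without resveratrol 3) and -0.78 (without resveratrol 1), and edgeR's unadjusted p was under 0.05 in all 6 of these fits. Over all 15 alternatives, edgeR's and limma's adjusted p never passed, and DESeq2's did. In RefSeq's annotation of the Sscrofa11.1 assembly, FCN2 lies next to its paralog FCN1, which matched no row here. Reads that both ficolins could share therefore cannot be assigned with certainty.

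The other lectin pathway genes had no unadjusted p under 0.05 where tested, and their difference from FCN2 was not tested. COLEC12, a scavenger receptor of the collectin family, averaged 11.6 ± 2.18 TPM in resveratrol and 14.4 ± 3.84 TPM in control (SD, n = 3 each), its diets overlapped, and its log2 fold change was -0.24 (SE 0.22). The serine proteases MASP1 and MASP2, which together cleave C4 and C2 once a lectin has bound, differed by log2 fold changes of -0.13 (MASP1, SE 0.44) and 0.08 (MASP2, SE 0.28). Both were lowest in control 3, where MASP1 measured 0.730 TPM against 1.37 to 3.08 TPM in the other 5 libraries. COLEC11, a soluble collectin, was near 0, with 0 to 6 reads in resveratrol libraries and 0 to 4 reads in control libraries. The diets could not be told apart for these 4 genes at this depth and spread.

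**Figure D2:**
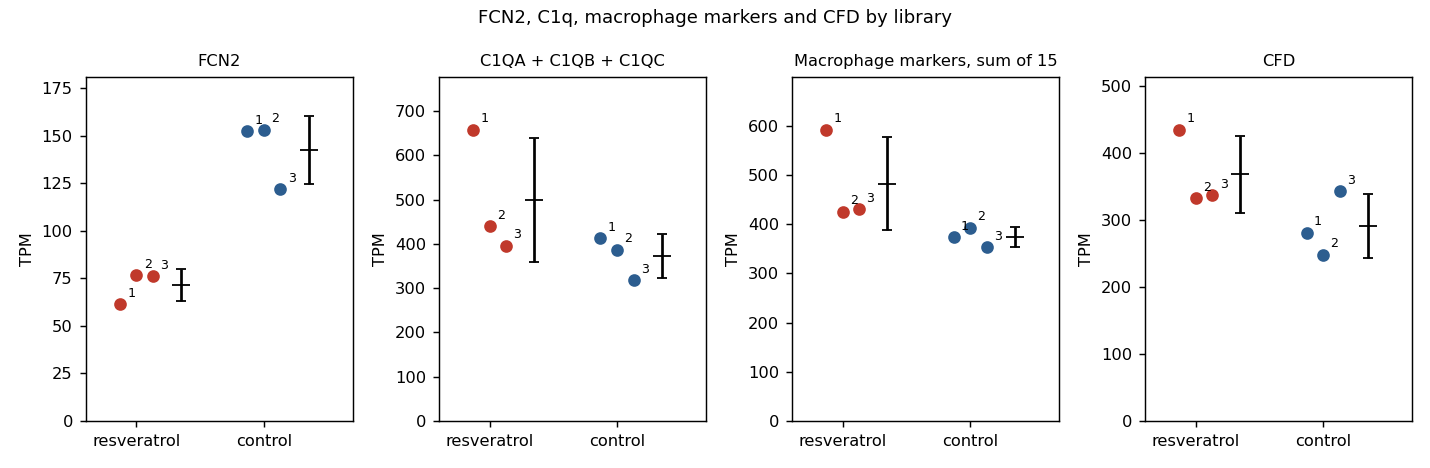
TPM per library of FCN2, of the summed C1q chains, of 15 summed macrophage markers and of CFD, with resveratrol left and control right in each panel. Points carry the replicate number, and the bars give the mean and SD of 3 libraries. FCN2 is lower in all 3 resveratrol libraries, and resveratrol 1 is the highest library for C1q (658 TPM), macrophage markers (592 TPM) and CFD (434 TPM).

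In the classical pathway, all 3 chains of C1q had higher means in resveratrol. C1QC measured 270, 171 and 159 TPM in resveratrol 1, 2 and 3, and 157, 153 and 132 TPM in control 1, 2 and 3. The diets did not overlap, although 159 TPM in resveratrol 3 and 157 TPM in control 1 were close. Its log2 fold change was 0.51 (SE 0.21), with an unadjusted p of 0.0389 and an adjusted p of 0.733 in edgeR. C1QB measured 187, 136 and 110 TPM in resveratrol 1, 2 and 3, and 118, 120 and 94.7 TPM in control 1, 2 and 3. Its diets overlapped, and its log2 fold change was 0.45 (SE 0.20; edgeR unadjusted p = 0.0480, adjusted p = 0.733). C1QA measured 202, 134 and 127 TPM in resveratrol 1, 2 and 3, and 139, 114 and 91.4 TPM in control 1, 2 and 3, with a log2 fold change of 0.50 (SE 0.23; edgeR unadjusted p = 0.0556, adjusted p = 0.733).

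The chains, which assemble into C1q in equal amounts, kept a steady ratio. C1QC made up 38.8% to 41.0% of the summed C1q TPM in resveratrol libraries and 37.9% to 41.5% in control libraries. C1QA took 30.5% to 32.0% and C1QB 27.8% to 30.8% in resveratrol libraries, against 28.7% to 33.6% for C1QA and 28.5% to 31.1% for C1QB in control libraries. The 3 genes are direct neighbours in RefSeq's annotation of Sscrofa11.1, with no other protein-coding gene between them.

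The size of the C1q difference depended on resveratrol 1. Without it, the log2 fold changes were 0.29 for C1QA, 0.25 for C1QB and 0.26 for C1QC, and none of the 3 had an edgeR unadjusted p under 0.05 (0.258, 0.260 and 0.236). Without control 2 or control 3, no C1q chain had an unadjusted p under 0.05 either. On log2(TPM + 0.5) the limma unadjusted p of the chains ran from 0.1004 to 0.142.

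Macrophage markers also had positive log2 fold changes, most of them short of the unadjusted threshold. All 15 tested markers of a macrophage list that holds no complement gene had a positive log2 fold change (against 48.8% of all tested genes), with a median of 0.35. Of these, 4 had an edgeR unadjusted p under 0.05 (against 2.21% of all tested genes in that direction) and 11 did not. Their summed level was 592, 425 and 430 TPM in resveratrol 1, 2 and 3, and 374, 393 and 353 TPM in control 1, 2 and 3. No marker of the list was at 0, and CD163, a scavenger receptor of resident macrophages, averaged 33.5 ± 6.77 TPM in resveratrol and 28.6 ± 4.38 TPM in control (SD, n = 3 each). Set against the macrophage sum, C1q stood at 111%, 104% and 92.2% in resveratrol 1, 2 and 3, and at 111%, 98.6% and 90.2% in control 1, 2 and 3. The diets overlapped in this ratio, with means of 102 ± 9.56% in resveratrol and 99.8 ± 10.2% in control. In bulk tissue, more cells of a type and more RNA per cell cannot be told apart. FCN2 ran the other way, and its TPM was 9.36%, 17.4% and 19.2% of the C1q sum in resveratrol 1, 2 and 3, against 36.8%, 39.6% and 38.3% in control 1, 2 and 3.

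C2, the protease shared by the classical and lectin pathways, differed little. It averaged 10.4 ± 2.64 TPM in resveratrol and 10.5 ± 1.98 TPM in control (SD, n = 3 each), and the 95% interval of its log2 fold change ran from -0.41 to 0.55. C2 was highest in resveratrol 1 and next highest in control 1. Its direct neighbour in RefSeq's annotation is CFB, whose libraries had another order.

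Among C3 and the alternative pathway genes, CFP was the gene at an unadjusted p under 0.05. CFP encodes properdin, which stabilises the C3 convertase and is made by myeloid cells. It measured 7.89, 5.27 and 5.35 TPM in resveratrol 1, 2 and 3, and 4.92, 4.55 and 4.0 TPM in control 1, 2 and 3, so that the diets did not overlap. Groups failed to overlap in the higher direction in 3 of the 21 complement genes (CFP, C1QC and ITGAM; 14.3%, against 4.11% of all tested genes), and in the lower direction in FCN2 (4.76%, against 8.15%). The log2 fold change of CFP was 0.54 (SE 0.21), with an edgeR unadjusted p of 0.0307 and an adjusted p of 0.733, and it was 0.35 (edgeR unadjusted p = 0.173) without resveratrol 1.

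CFD measured 434, 333 and 336 TPM in resveratrol 1, 2 and 3, and 281, 248 and 342 TPM in control 1, 2 and 3. Control 3 lay above resveratrol 2 and 3, so the diets overlapped. The means were 368 ± 57.7 TPM in resveratrol and 290 ± 47.9 TPM in control (SD, n = 3 each), and the log2 fold change was 0.40 (SE 0.22; 95% interval -0.10 to 0.89; edgeR unadjusted p = 0.104, adjusted p = 0.733). It was 0.22 without control 2 and 0.58 without control 3. Relative to the adipocyte gene ADIPOQ, CFD stood at 9.79%, 7.10% and 7.35% in resveratrol 1, 2 and 3, and at 7.77%, 6.13% and 9.02% in control 1, 2 and 3, which again overlapped. ADIPOQ itself was higher in every resveratrol library (log2 fold change 0.36, SE 0.21), so the ratio also carries that difference. Of 7 adipocyte genes, ADIPOQ was the 1 whose diets did not overlap. The log2 fold change was positive in 6 (against 48.8% of all tested genes) and negative in LEP (-0.67, SE 0.35).

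C3 measured 4.37, 3.70 and 1.77 TPM in resveratrol 1, 2 and 3, and 7.90, 3.72 and 3.03 TPM in control 1, 2 and 3. A single library, control 1, held the high end. The log2 fold change was -0.52 (SE 0.44), and 0.09 without control 1. CFB, the protease subunit of the alternative C3 convertase, was low in both diets, with 1.53 ± 0.662 TPM in resveratrol and 1.85 ± 0.386 TPM in control (SD, n = 3 each), and overlapped between them.

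**Figure D3:**
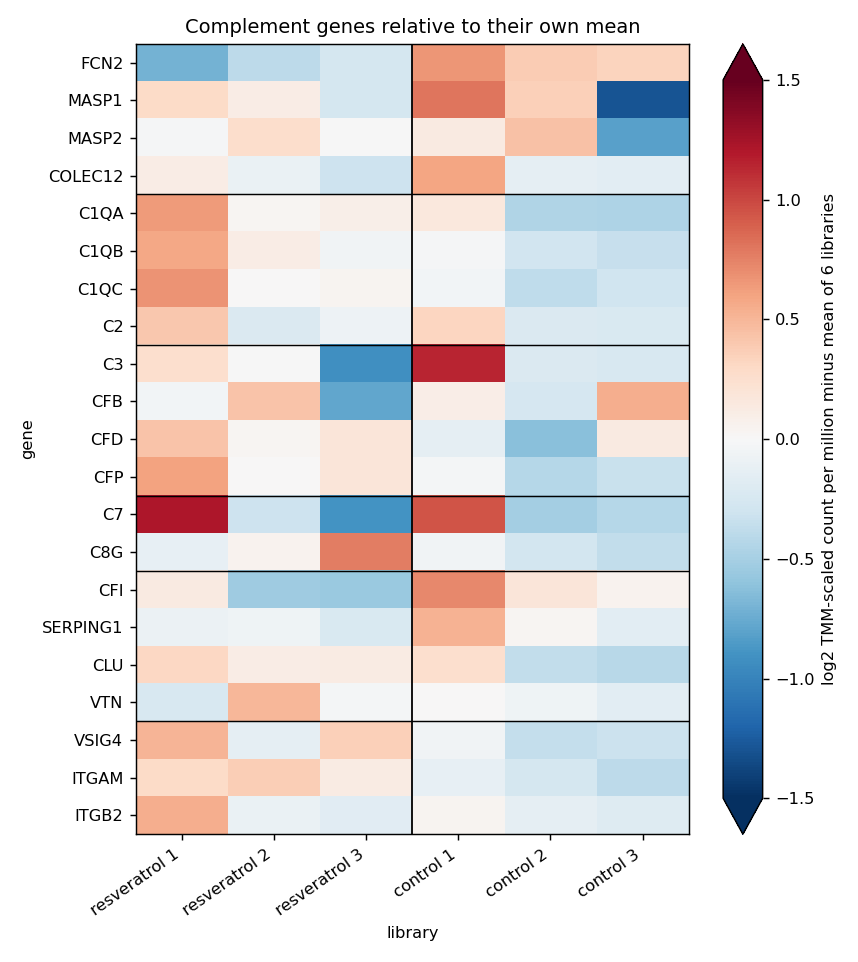
Level of each tested complement gene in each library, as the log2 TMM-scaled CPM (read counts scaled to a common library size) minus the gene's mean over the 6 libraries, with resveratrol libraries left and control libraries right. TMM is the trimmed mean of M values scaling of library sizes. Resveratrol 1 is the highest library for 10 of the 21 genes, control 1 for 6, and control 3 is the lowest for 9.

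The terminal pathway, whose proteins build the membrane attack complex, was sparse. C8G, the gamma chain of C8, had the highest mean, with 4.20, 4.80 and 7.02 TPM in resveratrol 1, 2 and 3, and 4.17, 4.49 and 3.51 TPM in control 1, 2 and 3. The diets overlapped, and its log2 fold change of 0.51 (SE 0.31) was 0.20 without resveratrol 3. C7 measured 6.73, 2.37 and 1.42 TPM in resveratrol 1, 2 and 3, and 5.48, 2.41 and 2.12 TPM in control 1, 2 and 3. A high library thus stood in each diet, and the log2 fold change of 0.11 (SE 0.64) was -0.74 without resveratrol 1 and 0.75 without control 1. C7 had the widest spread within diets of all 21 genes, and ITGAM the narrowest (SD of 0.929 and 0.130 on the log2 scale).

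C5, the precursor of the C5a peptide, averaged 0.430 ± 0.0985 TPM in resveratrol and 0.407 ± 0.109 TPM in control (SD, n = 3 each). C6 had 2, 24 and 3 reads in resveratrol 1, 2 and 3, and 2, 6 and 8 reads in control 1, 2 and 3. Resveratrol 2, with the most C6 reads, was also the highest library for most genes of a liver list. ALB measured 11.1 TPM there against 0.122 to 0.893 TPM in the other 5 libraries, and FGG 2.16 TPM against 0 to 0.0985 TPM. APOH, TF, SERPINC1, FGB, AHSG, TTR and HPX were also highest there. APOA1, the most abundant gene of that list, was not, at 175 TPM against 172 to 279 TPM in the other 5 libraries. TF also reached 3.35 TPM in resveratrol 1, and TTR 2.10 TPM in control 2. The liver-made genes C8A and C8B had 14 and 7 reads in resveratrol 2, while C8A had 1 read (control 3) and C8B 0 reads in the other 5 libraries. VTN, which encodes vitronectin, a soluble inhibitor of the membrane attack complex that the liver secretes, was also highest in resveratrol 2. It measured 2.57, 4.32 and 2.71 TPM in resveratrol 1, 2 and 3, and 2.95, 3.47 and 2.64 TPM in control 1, 2 and 3. Its log2 fold change was 0.18 (SE 0.24), and -0.06 without resveratrol 2. The part of the liver transcripts in these values was not tested.

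The soluble regulators did not share a direction. CFI, the protease that degrades C3b and C4b, was lower in resveratrol at an unadjusted p under 0.05. It measured 2.63, 1.69 and 1.48 TPM in resveratrol 1, 2 and 3, and 3.82, 3.24 and 2.45 TPM in control 1, 2 and 3. Resveratrol 1 lay above control 3, so the diets overlapped. The log2 fold change was -0.63 (SE 0.27; edgeR unadjusted p = 0.0408, adjusted p = 0.733). It was -0.40 without control 1 and -0.89 without resveratrol 1 (edgeR unadjusted p = 0.186 and 0.0118), and scaling by library totals alone gave -0.55 (edgeR unadjusted p = 0.0911).

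SERPING1, which encodes the C1 inhibitor, the serpin that blocks C1r, C1s and the MASPs, was the most abundant of the 4 matched regulators of the list of 33. It measured 107, 109 and 87.9 TPM in resveratrol 1, 2 and 3, and 157, 136 and 98.7 TPM in control 1, 2 and 3. The diets overlapped, and the log2 fold change was -0.28 (SE 0.21; 95% interval -0.74 to 0.18), or -0.06 without control 1. CLU, the chaperone clusterin, averaged 33.8 ± 3.73 TPM in resveratrol and 28.4 ± 6.50 TPM in control (SD, n = 3 each), with a log2 fold change of 0.33 (SE 0.20) that was 0.58 without control 1.

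Control 1 was the highest library in TPM for MASP1, COLEC12, C3, CFI and SERPING1. The same library was high in tendon and cartilage markers. Their summed level over 8 genes was 37.5, 46.8 and 27.2 TPM in resveratrol 1, 2 and 3, and 532, 45.4 and 100.01 TPM in control 1, 2 and 3, with no marker at 0. All 8 had a negative log2 fold change, and 4 an edgeR unadjusted p under 0.05 (against 4.32% of all tested genes in that direction). The diets did not overlap in 2 of them, TNMD and COL2A1 (against 8.15%). COL2A1 measured 0.936, 0.970 and 1.08 TPM in resveratrol 1, 2 and 3, and 11.8, 5.08 and 7.26 TPM in control 1, 2 and 3. A list of 11 fibroblast and stromal genes summed to 5941, 7725 and 5472 TPM in resveratrol 1, 2 and 3, and to 12154, 5919 and 6679 TPM in control 1, 2 and 3. Most of the control 1 sum was COL1A1 (3536 TPM) and COL1A2 (4241 TPM). PDGFRB, DCN, PI16 and FBN1 were also highest in control 1. PDGFRA, COL3A1, DPP4 and MFAP5 were not, and LUM was lowest there (55.3 TPM). The part of tendon, cartilage or stromal cells in the 5 complement genes, or in FCN2, was not tested. For FCN2, which was as high in control 2 (153 TPM) as in control 1 (152 TPM), the log2 fold change without control 1 was -0.80. That fit is no test of this part, because COL2A1 also exceeded every resveratrol library in the controls that remained.

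All 3 matched receptor genes had a positive log2 fold change. ITGAM, the alpha chain of complement receptor 3, which takes up particles coated with iC3b, measured 13.1, 14.6 and 11.3 TPM in resveratrol 1, 2 and 3, and 9.71, 10.3 and 8.08 TPM in control 1, 2 and 3. The diets did not overlap, and the order of libraries differed from that of C1q, since resveratrol 2 was the highest. The log2 fold change was 0.52 (SE 0.16; edgeR unadjusted p = 0.00740, adjusted p = 0.733). It ran from 0.45 to 0.60 with each library left out, with an unadjusted p under 0.05 in all 6 fits and in all 15 alternatives. No tool's adjusted p for ITGAM passed, and DESeq2's was 0.255. In RefSeq's annotation of Sscrofa11.1, ITGAM lies next to the integrin gene ITGAD. Reads that both genes could share cannot be assigned with certainty.

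VSIG4, a receptor for C3b and iC3b on resident macrophages, measured 19.2, 12.4 and 15.7 TPM in resveratrol 1, 2 and 3, and 12.5, 12.4 and 10.5 TPM in control 1, 2 and 3. The diets overlapped through resveratrol 2. The log2 fold change was 0.51 (SE 0.20; edgeR unadjusted p = 0.0265, adjusted p = 0.733), or 0.38 (edgeR unadjusted p = 0.125) without resveratrol 1. ITGB2, the beta chain that pairs with ITGAM and is shared by other leukocyte integrins, measured 13.5, 8.77 and 7.55 TPM in resveratrol 1, 2 and 3, and 9.32, 9.92 and 7.90 TPM in control 1, 2 and 3. Its log2 fold change was 0.22 (SE 0.21), and -0.03 without resveratrol 1.

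ITGAM is expressed by neutrophils as well as macrophages. Of 7 neutrophil genes with a row, 4 were tested and 3 of these had a positive log2 fold change (against 48.8% of all tested genes). S100A8 and S100A12 were higher at an edgeR unadjusted p under 0.05 (against 2.21% of all tested genes), each with an adjusted p of 0.733. The diets did not overlap in S100A8 and CSF3R, both higher in resveratrol (against 4.11% of all tested genes). The summed level of the 7 genes was 214, 122 and 178 TPM in resveratrol 1, 2 and 3, and 117, 67.0 and 70.4 TPM in control 1, 2 and 3, nearly all of it S100A8 and S100A12. The granule genes MPO, MMP8 and LTF lay at or under 0.153 TPM in every library. ELANE, another granule gene, measured 1.20 to 1.69 TPM in resveratrol libraries and 1.30 to 2.16 TPM in control libraries. It was the tested neutrophil gene with a negative log2 fold change (-0.26, SE 0.35). The part of either cell type in the ITGAM values was not tested.

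**Figure D4:**
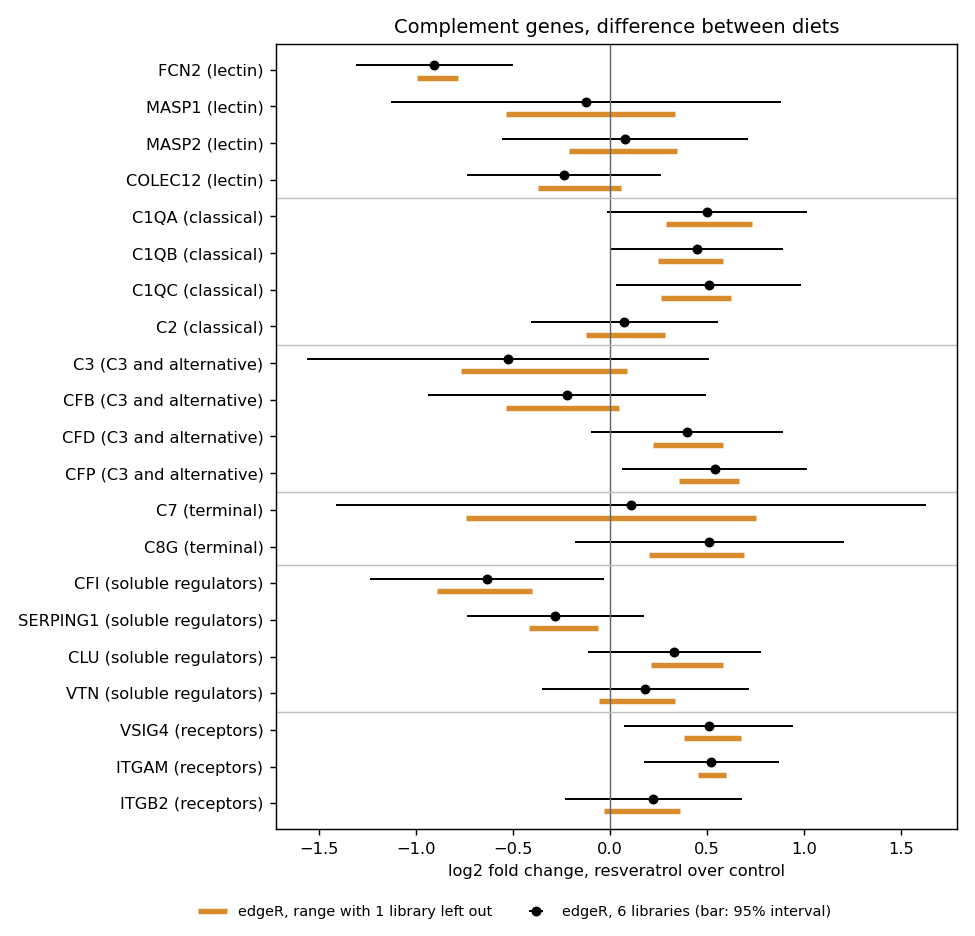
Log2 fold change, resveratrol over control, of the 21 tested complement genes in edgeR. Black points and bars give the estimate and 95% interval from 6 libraries, and orange lines the range of estimates with 1 library left out. The FCN2 range lies between -0.995 and -0.78 and the ITGAM range between 0.45 and 0.60, while that of C7 runs from -0.74 to 0.75.

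Other complement genes outside the list of 33 were read from a second list of 34, of which 22 had a row and 10 were tested. In edgeR, 0 passed the adjusted threshold (0 in DESeq2 too), and at an unadjusted p under 0.05, 1 was higher (against 2.21% of all tested genes) and 3 were lower (against 4.32%). The higher gene was C4BPA, the alpha chain of C4b-binding protein, a soluble inhibitor of the classical and lectin pathways. It measured 230, 136 and 205 TPM in resveratrol 1, 2 and 3, and 118, 175 and 101 TPM in control 1, 2 and 3. The diets overlapped through control 2, and the log2 fold change was 0.61 (SE 0.23; edgeR unadjusted p = 0.0238, adjusted p = 0.733). With a mean of 161 TPM, C4BPA lay between C1QC and C1QA in level, while C4BPB, its partner chain, averaged 0.107 TPM. RefSeq lists adjacent loci of the name C4BPA in pig, so reads may be split between copies.

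The lower genes were PTX3, C9 and SUSD4. PTX3, a pentraxin that binds C1q and ficolins, measured 2.13, 3.96 and 2.89 TPM in resveratrol 1, 2 and 3, and 4.45, 6.92 and 6.75 TPM in control 1, 2 and 3. C9, the pore-forming terminal component, measured 1.60, 1.26 and 1.80 TPM in resveratrol 1, 2 and 3, and 2.67, 2.75 and 5.54 TPM in control 1, 2 and 3. SUSD4, a membrane complement inhibitor, averaged 0.300 ± 0.0331 TPM in resveratrol and 0.764 ± 0.199 TPM in control (SD, n = 3 each), on 19 to 64 reads per library. The diets did not overlap in these 3 of the 10 tested genes of the second list (against 8.15% of all tested genes in that direction). The 3 had been picked by their unadjusted p, so this separation is no further support. Each had an adjusted p of 0.733 in edgeR. CALR, a chaperone that also serves as a cell surface partner of C1q, and C1QBP, a mitochondrial protein that binds C1q, were abundant, and their diets overlapped, with a log2 fold change of 0.49 (SE 0.24) for CALR and 0.18 (SE 0.21) for C1QBP. C4A, which both the classical and lectin pathways cleave, averaged 20.3 ± 9.19 TPM in resveratrol and 23.2 ± 7.47 TPM in control (SD, n = 3 each).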

How the data were processed

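Total RNA of 6 libraries, 3 per diet, was sequenced after Trizol extraction and a lncRNA kit, per the labels' protocols. The authors deposited for each library whole-number read counts and TPM values per gene, per the file headers. The submitters' processing notes name Bowtie 0.12.2 along with mm8 and mm9, which are mouse builds. For the pig build, the counting program and its use of strand, the sources used here give nothing, so reads of paralogs and overlapping genes are uncertain and no coordinates are printed. Symbols matched 14750 of 22844 rows. The 14908 rows that averaged 0.5 TPM or more were tested with edgeR 4.0.16 (TMM, robust quasi-likelihood, no covariate) on the deposited counts, with Benjamini-Hochberg adjustment and a threshold of 0.05. The SE is the size of the log2 fold change divided by the square root of F. Alternatives were DESeq2 1.42.0, limma 3.58.1 on log2(TPM + 0.5) and log2(TPM + 1), other scalings and filters, a replicate block and each library left out, in R 4.3.3. The pipeline was tested on simulated data. All matched genes are accounted for. Values per library are given for genes of the list of 33 at an unadjusted p under 0.05 or with non-overlapping diets. They are also given for the most abundant gene of each role, and further genes were named after their values were seen. The members and lists were chosen with earlier results of these data known. Ratios to marker genes were chosen after seeing the data.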

Additional observations from a re-analysis of the deposited data

How the results depend on the processing

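With 3 libraries a diet and a shallow control 2, modest differences are near the limit of what these data resolve. DESeq2 called 40 genes, 1 of them a complement gene (FCN2), where edgeR called 0 and 0. Leaving out 1 library gave 0 to 5 calls over all genes, with 5 without control 2, and 0 among complement genes. The 973 genes at an unadjusted p under 0.05 became 403 to 1681 with a library left out (403 without resveratrol 3, 556 without resveratrol 1, 1681 without control 3). The 5 complement genes higher at that p became 1 in limma with a pseudocount of 0.5 TPM and 1 with a pseudocount of 1 TPM, and 1 to 7 with a library left out, with 1 without resveratrol 1 or control 2 and 2 without control 3. The 2 lower ones became 1 with library totals alone, and 1 to 2 with a library left out, with 1 without resveratrol 2, resveratrol 3 or control 1. The median log2 fold change of the complement genes stayed between 0.04 and 0.33 over 15 alternatives. Direction held in all alternatives for 12 of the 21 genes. With a library left out, the log2 fold change ran from -0.12 to 0.28 for C2, -0.21 to 0.35 for MASP2, -0.53 to 0.33 for MASP1, -0.77 to 0.088 for C3, -0.74 to 0.75 for C7, -0.54 to 0.045 for CFB, -0.031 to 0.36 for ITGB2, -0.059 to 0.34 for VTN and -0.37 to 0.054 for COLEC12. With limma, C2 was at -0.019 (pseudocount 0.5) and -0.018 (pseudocount 1), and C7 at -0.063 and -0.042. The cause of these changes was not tested.

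The replicate numbers were not taken to pair libraries, since nothing states that they pair animals. The deviations of same-numbered libraries correlated at 0.22, 0.03 and 0.24 for numbers 1, 2 and 3. Those of differently numbered libraries correlated at -0.24 to 0.03, so the values for numbers 1 and 3 were the highest. Whether the numbers mark pairs is not known. With the replicate number as a block, 0 genes were called, 1259 had an unadjusted p under 0.05, 7 complement genes were higher and 2 lower at that p, and MASP1 was at 0.061. Resveratrol 2 correlated more with control 1 (0.03452) than with control 2 (0.02935).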

Other observations

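Cell type markers beyond those set beside the complement genes differed between libraries. T cell genes (6 with a row) summed to 23.1, 10.8 and 8.08 TPM in resveratrol 1, 2 and 3, and to 12.2, 9.54 and 13.1 TPM in control 1, 2 and 3, so that resveratrol 1 stood highest, as it did for C1q and the macrophage markers. B cell genes were low in both diets, with 6 of 8 under a mean of 0.5 TPM and sums of 2.85 to 3.82 TPM in resveratrol libraries and 2.93 to 4.17 TPM in control libraries. AHSG, a liver-made plasma protein, measured 3.43 TPM in resveratrol 2 and at most 0.0576 TPM in the other 5 libraries. Endothelial genes (5 with a row) summed to 219, 230 and 205 TPM in resveratrol 1, 2 and 3, and to 213, 298 and 256 TPM in control 1, 2 and 3.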
